A study of Mus musculus with 3 samples.

Results

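Rab GTPases are small switch proteins that mark the membranes of a cell and direct traffic between them. In its GTP-bound form a Rab recruits effector proteins that move, tether or fuse vesicles. Exchange factors (GEFs) load it with GTP, GTPase-activating proteins (GAPs) return it to the GDP-bound form, and GDI proteins carry that form through the cytosol. In platelets the family is best known for Rab27, which controls the formation and release of dense granules, and for Rab32 and Rab38, which act in the biogenesis of lysosome-related organelles. The members were all rows whose Entrez number maps to a mouse protein-coding symbol made of Rab, a number and at most a single letter. That gave 41 of the 9822 genes in the tables. RefSeq lists 59 such genes for GRCm38.p6, so 18 were not analysed here.

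Total RNA was taken from freshly prepared blood platelets of BALB/c males with wild-type Nxf1, at an age of 20 weeks. There were 3 libraries, called replicates 1 to 3, in a single group without a treatment, and no genotype or condition could be compared. The labels put each replicate in a batch of its own, so sample and batch cannot be told apart. They do not say whether the replicates came from separate mice, so the spread, and any p-value made from it, is that between these samples and may be technical. The tables hold 26974129, 25189231 and 26111636 counts in replicates 1, 2 and 3. Levels are given as CPM, which is the count of a gene per 1000000 counts of its library. A second scale, CPM per 1000 bases of the deposited gene length, is called the length scale here, and log2 ratios between related genes are given by reads and per length. All 19 platelet and megakaryocyte markers were at 1 CPM or more in every library, from Selp at 44.3 to Ppbp at 10169 CPM. The red cell list took 4.87%, 0.522% and 0.680% of counts in replicates 1, 2 and 3. The B cell list summed to 288, 283 and 464 CPM and was highest in replicate 3.

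Rab RNAs formed a small and steady fraction of the platelet RNA with a few dominant members. Replicate 1 had 0.261% of its counts in the 41 genes, with 95% exact Clopper-Pearson limits of 0.259% and 0.263%. The share was 0.263% for replicate 2 (limits 0.261% and 0.265%) and 0.268% for replicate 3 (limits 0.266% and 0.270%). These limits cover counting error only. The mean was 0.264% ± 0.00347 (SD, n = 3). The totals include red cell counts, at 4.87%, 0.522% and 0.680% in replicates 1, 2 and 3, so the order of these shares depends on them. The median member was at 16.5 CPM, against 3.86 CPM for all genes in the tables. On the length scale the medians were 8.05 and 1.49. The mean level was at or above 10 CPM in 26 of 41 members (background of all genes 31%) and at or above 100 CPM in 7 (background 7.95%). In all, 37 members reached 1 CPM in every library, a share of 90.2% beside 77.7% of all genes. At a minimum of 0.5 CPM the shares were 92.7% and 93.0%, so the members were not the more often detected there. The 7 highest genes held 75.02% of Rab reads, and the highest pair, Rab11a and Rab27b, held 41.6%. From Rab11a to Rab40b the level by reads fell 1316-fold.

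**Figure D1:**
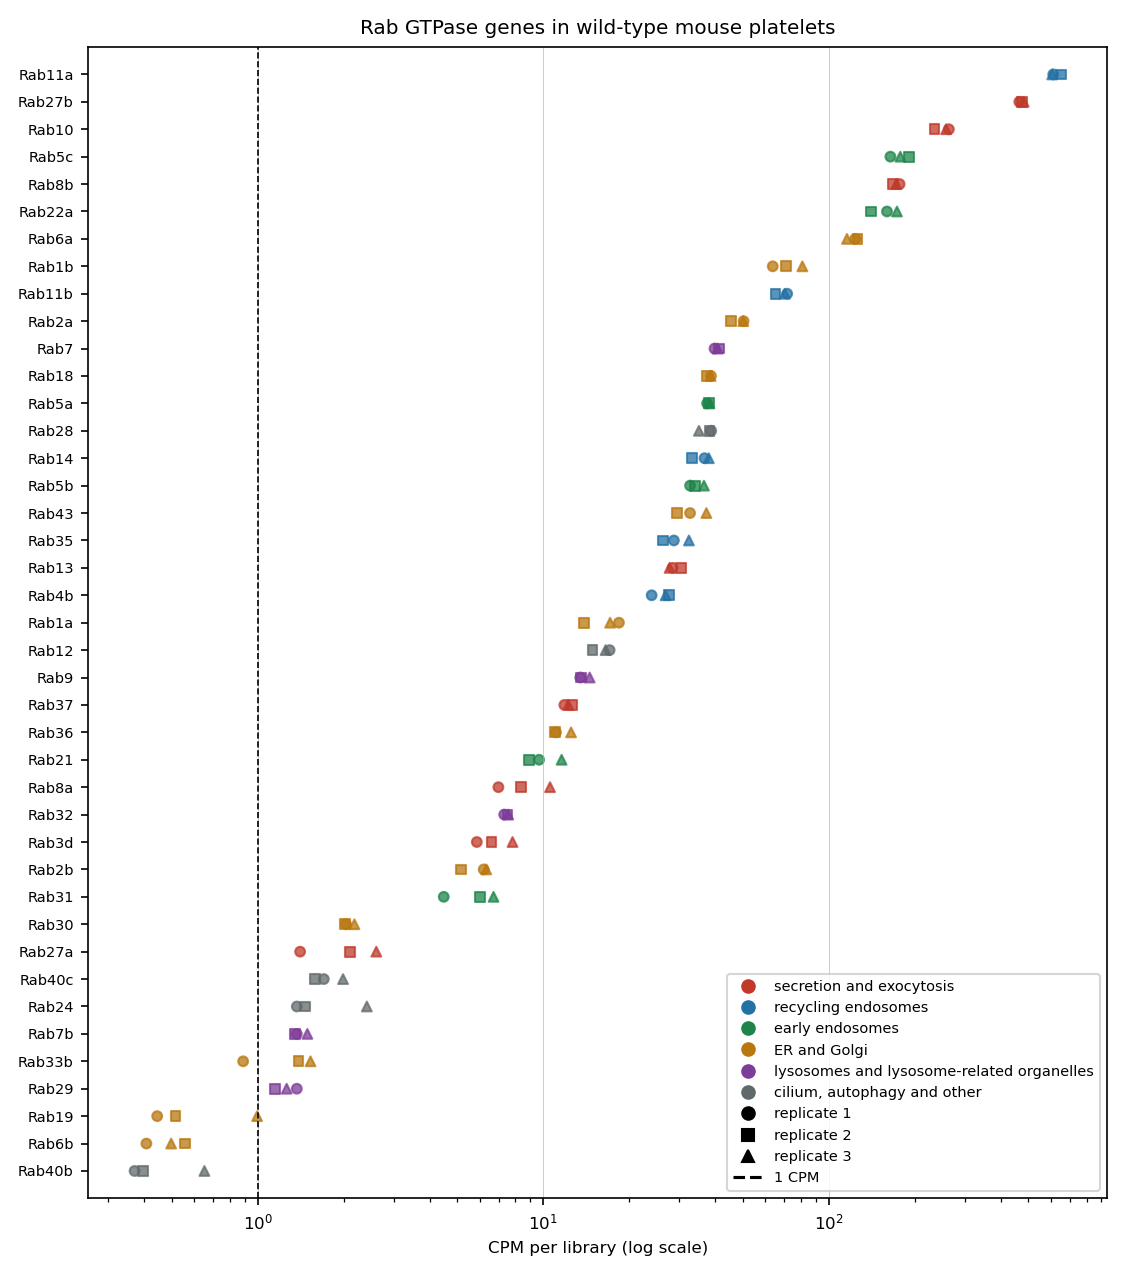
CPM of each Rab gene in each of the 3 libraries (x axis, log scale), ordered by mean level. Colours give the membrane step the gene is known for, symbols the replicate, and the dashed line 1 CPM. Rab11a is highest at 623 CPM on average, and the genes with points left of the dashed line are Rab33b, Rab19, Rab6b and Rab40b.

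The Rabs of secretion supplied the most reads of any group of members, 36.3% of Rab CPM. Rab27b alone held 49.6% of the CPM of this group. Each gene counts in a single group, so the order of groups depends on that assignment. The group had 8 of 12 genes in the tables, all 8 at 1 CPM or more in every library. As background for the counts of this and the other groups, 41.6% of RefSeq protein-coding genes were in the tables. Of all genes in the tables, 77.7% were detected at that minimum. On the length scale the summed level was 213 ± 3.75 for secretion, below recycling at 326 ± 8.62 and early endosomes at 230 ± 9.54. Rab27b (Entrez gene 80718, chromosome 18, 69979131 to 70141633 in GRCm38), the Rab27 form that platelets use for dense granule packaging and release, was at 465, 477 and 482 CPM in replicates 1, 2 and 3. That is 475 ± 8.53 CPM (SD, n = 3), rank 254 of all genes. Its relative Rab27a (chromosome 9, 73044810 to 73097623), which serves lytic granules of lymphocytes and melanosomes of pigment cells, was at 1.41, 2.10 and 2.60 CPM, from 38, 53 and 68 counts. The levels of the pair were thus far apart in all 3 libraries, with a log2 ratio of 7.85 ± 0.41. Per length the log2 ratio was 6.59, a 96.4-fold difference. Rab27a was lowest in replicate 1 and highest in replicate 3. The B cell list was also highest in replicate 3. The T and NK cell list, at 37.1, 39.5 and 55.5 CPM, and the neutrophil list, at 14.1, 18.9 and 22.5 CPM, had the same order over the libraries as Rab27a. The platelet and megakaryocyte list, at 4.55%, 4.76% and 4.90% of counts, had this order too. Of all genes at a mean of 1 CPM or more, 69.1% were highest in replicate 3. The monocyte and macrophage list, at 1338, 1567 and 1421 CPM, was highest in replicate 2. The basophil, mast cell and eosinophil, endothelium and red cell lists also had another order. The part of other cells in the level of Rab27a was not tested. In bulk RNA, fewer cells of a type and less RNA per cell cannot be told apart.

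The Rab8 subfamily, which delivers vesicles to the plasma membrane, followed the same uneven pattern. Rab10 was at 264, 235 and 258 CPM, the third highest Rab gene. Rab8b was at 177, 168 and 172 CPM, while Rab8a was at 6.97, 8.38 and 10.6 CPM, with no overlap between the genes. Rab8a therefore lay below Rab8b by a log2 ratio of -4.33 ± 0.32 (-3.09 per length) and below Rab10 by -4.87 ± 0.32 (-4.07). Rab13, the remaining member of this subfamily in the tables, was at 28.8 ± 1.35 CPM. Rab37, known from secretory granules of mast cells and pancreatic islets, was steady at 11.9, 12.6 and 12.3 CPM. Rab3d was at 5.86, 6.59 and 7.81 CPM and was the only Rab3 gene in the tables. The exocytic Rabs of neurons and endocrine cells Rab3a, Rab3b, Rab3c and Rab26 were not analysed here.

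Recycling Rabs came next, with 29.7% of Rab CPM, and Rab11a alone held 79.5% of the CPM of this group. Rab11a (Entrez gene 53869, chromosome 9, 64715300 to 64737756), which governs the return of membrane proteins from recycling endosomes to the surface, was at 612, 649 and 607 CPM. At 623 ± 23.4 CPM it was the highest Rab gene by reads and, at 267 ± 10.04, on the length scale as well. Its paralog Rab11b was at 71.6, 65.1 and 70.2 CPM, a log2 ratio of 3.17 ± 0.12 in favour of Rab11a (4.55 per length). Rab14, Rab35 and Rab4b were at 36.0 ± 2.55, 29.2 ± 3.05 and 26.1 ± 1.87 CPM. The epithelial forms Rab25 and Rab17 were not analysed here, nor were Rab15 and Rab4a, so Rab4b could not be set against Rab4a.

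Early endosomal Rabs were all detected where they were in the tables, 6 of 7 genes, and took 16.1% of Rab CPM. Rab5c was at 164, 191 and 178 CPM. Rab5a, at 37.5, 38.2 and 38.2 CPM, and Rab5b, at 32.7, 34.0 and 36.6 CPM, were lower in every library. Rab5c exceeded Rab5a by a log2 ratio of 2.22 ± 0.10 (2.81 per length), whereas Rab5b lay slightly below Rab5a, at -0.14 ± 0.07 (-0.57 per length). These isoforms share the task of fusing endocytic vesicles with early endosomes. Rab22a, a relative of Rab5, was at 160, 141 and 173 CPM, and its paralog Rab31 at 4.49, 5.99 and 6.70 CPM, a log2 ratio of 4.78 ± 0.31 (5.65 per length). Rab21, which traffics integrins, was at 9.68, 8.93 and 11.6 CPM.

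In the ER and Golgi group 12 of 15 genes were in the tables and 9 were detected. Rab6a, which acts in traffic at the Golgi, was at 124, 126 and 116 CPM, and its brain-enriched paralog Rab6b at 0.408, 0.556 and 0.498 CPM, from 11 to 14 counts per library. Their log2 ratio was 7.77 ± 0.21 by reads and 8.28 per length. Rab1b and Rab1a, which serve transport from the ER to the Golgi, were at 63.7, 70.7 and 80.9 CPM and at 18.4, 13.9 and 17.2 CPM. In this pair the b form was the higher, with a log2 ratio of Rab1a to Rab1b of -2.12 ± 0.29 (-2.65 per length). Rab2a was at 48.7 ± 2.78 CPM and exceeded Rab2b by 3.03 ± 0.08 on the log2 scale (3.46 per length). Rab18, a Rab of ER and lipid droplets, was at 38.7, 37.6 and 38.6 CPM. Rab43 was at 32.7, 29.5 and 37.3 CPM, whereas its relative Rab19 was at 0.445, 0.516 and 0.996 CPM, under 1 CPM in all 3 libraries. Rab36 was at 11.5 ± 0.845 CPM. Rab30, at 2.08 ± 0.0875 CPM, was the gene just below the widest gap between neighbours in the order of levels, 2.75-fold under Rab31.

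The Rabs of lysosomes and lysosome-related organelles took only 2.45% of Rab CPM, from 5 genes. Rab32 was at 7.30, 7.503 and 7.54 CPM, with a spread below its counting error of 0.535 CPM. Rab38, which is expressed in pigment cells and acts together with Rab32 there, was not analysed here. Rab29, the other relative of Rab32, was at 1.37, 1.15 and 1.26 CPM, a log2 ratio of Rab32 to Rab29 of 2.49 ± 0.14 (1.71 per length). Rab7, the Rab of late endosomes and lysosomes, was at 39.8, 41.2 and 40.8 CPM, and Rab7b at 1.37, 1.35 and 1.49 CPM. Rab9, which returns mannose 6-phosphate receptors from late endosomes to the Golgi, was at 13.5, 13.5 and 14.6 CPM.

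Of the remaining group, 5 of 9 genes were in the tables, with 2.18% of Rab CPM. Rab28, which acts in cilia of photoreceptors, was the highest of them at 38.8, 38.2 and 35.1 CPM. Rab12 was at 16.2 ± 1.15 CPM. Rab40c, at 1.71, 1.59 and 1.99 CPM, and Rab40b, at 0.371, 0.397 and 0.651 CPM, carry a SOCS box that recruits a ubiquitin ligase; Rab40c was the higher by a log2 ratio of 1.77 ± 0.25 (1.37 per length). Rab24, a Rab linked to autophagy, was at 1.37, 1.47 and 2.41 CPM, from 37, 37 and 63 counts. The genes Rab23, Rab34, Rab42 and Rab44 of this group were not analysed here. The same holds for Rab20 of the early endosomal group, Rab9b of the lysosomal group, and Rab33a, Rab39 and Rab39b of the ER and Golgi group.

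Around the minimum of 1 CPM, Rab29 was the member with the lowest mean that passed in all 3 libraries. Rab33b, at 0.890, 1.39 and 1.53 CPM, missed it in replicate 1 alone, and without replicate 1 the number detected was 38. Of the 40 neighbouring pairs in the order of levels, 14 had ranges over the libraries that did not overlap. Rab11a, Rab27b and Rab10 were each separate from the next gene. Rab5c, Rab8b and Rab22a formed an order that their spread did not resolve. Among the 8 genes from Rab18 down to Rab13 no neighbouring ranges were separate.

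**Figure D2:**
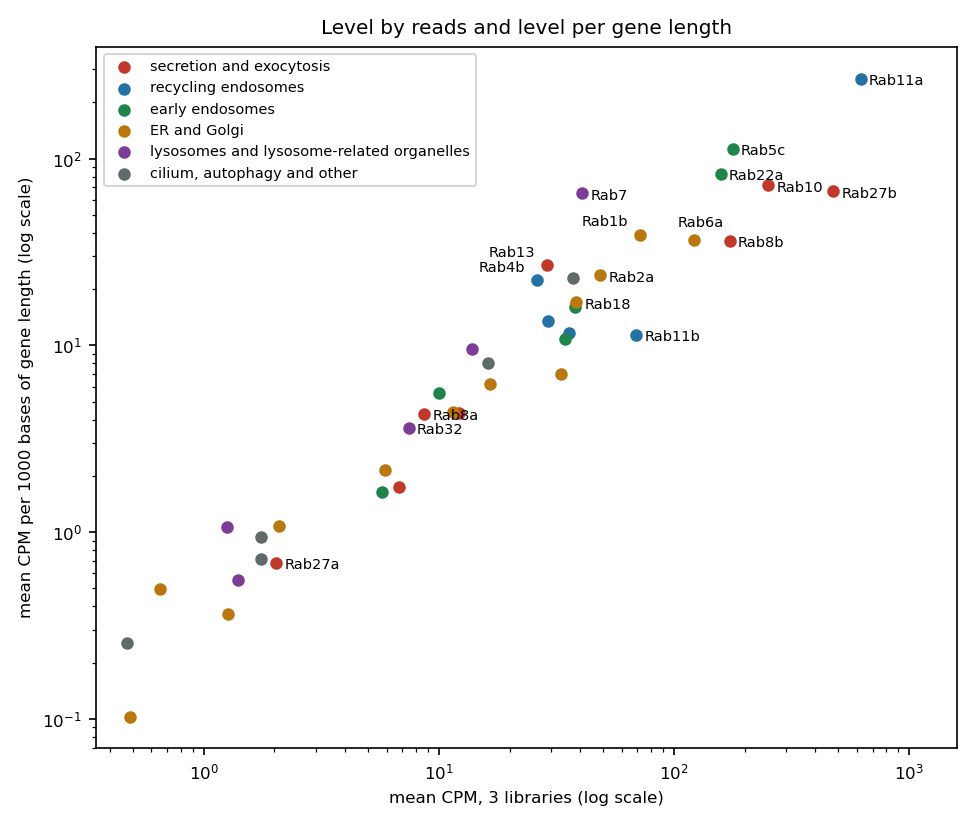
Mean CPM of each Rab gene (x axis) against mean CPM per 1000 bases of deposited gene length (y axis), both on log scales, coloured by membrane step. Rab11a is highest on both axes, Rab27b moves from rank 2 by reads to rank 5 per length, and Rab7 lies above the genes of like read level.

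The length scale changed several positions, because the deposited gene lengths of the members ranged widely. Rab27b, with a length of 7120 bases, was at 66.7 ± 1.20 per 1000 bases and fell to rank 5 among the Rab genes. It stood below Rab5c (113 ± 8.44), Rab22a (82.8 ± 8.67) and Rab10 (71.8 ± 4.31). The ranges of Rab22a and Rab10, of Rab10 and Rab27b, and of Rab27b and Rab7 overlapped. Rab11b fell from rank 9 to rank 18. Rab7 rose from rank 11 to rank 6, at 65.1 ± 1.15 per 1000 bases. Its deposited length of 624 bases equals the coding sequence of Rab7 in GENCODE M21, whereas the exons of the gene in that annotation cover 2610 bases. Reads in the untranslated parts of Rab7 would then not have been counted, and its CPM is a value for the coding part. The deposited length was also under 30% of the GENCODE exon length for Rab22a (26.5%), Rab14 (22.7%) and Rab30 (20.0%). With Rab7 these were 4 of 41 members, beside 6.39% of 8911 protein-coding genes of the tables. The median of this percentage was 76.6% over the members and 69.2% over those protein-coding genes.

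Pairs of related Rabs have separate counts in spite of their similarity. How reads were assigned between them was not tested. A read that lies wholly within a stretch identical in a pair fits both genes, whereas a longer read also covers differing bases. For the 4 pairs below the longest stretch of identical bases shared by the coding sequences is shown in capitals. Up to 10 flanking bases of each gene are in lower case. All are on the gene's own strand, 5′ to 3′, read from GENCODE M21 transcripts (GRCm38), and each lies in a single coding exon.
Rab1a (chr11:20224375-20224432): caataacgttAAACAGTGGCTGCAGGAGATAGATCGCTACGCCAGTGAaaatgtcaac
Rab1b (chr19:5100733-5100790): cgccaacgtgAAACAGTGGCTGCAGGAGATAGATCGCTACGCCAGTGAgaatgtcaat
Rab5b (chr10:128681423-128681477): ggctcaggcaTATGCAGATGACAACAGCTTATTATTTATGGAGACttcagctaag
Rab5a (chr17:53500378-53500432): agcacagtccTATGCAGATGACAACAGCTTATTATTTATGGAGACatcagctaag
Rab8a (chr8:72161370-72161406): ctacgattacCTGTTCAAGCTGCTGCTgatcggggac
Rab8b (chr9:66919586-66919622): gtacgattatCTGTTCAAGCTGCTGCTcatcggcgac
Rab11a (chr9:64737588-64737621): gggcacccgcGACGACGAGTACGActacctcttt
Rab11b (chr17:33760227-33760260): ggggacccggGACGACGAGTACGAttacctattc
The stretches span 38 bases for Rab1a and Rab1b, 35 for Rab5b and Rab5a, 17 for Rab8a and Rab8b and 14 for Rab11a and Rab11b. Over the whole coding sequence these pairs were identical at 76.1%, 74.1%, 77.5% and 75.04% of aligned bases, and Rab27b and Rab27a at 67.5%, with a longest stretch of 22 bases. None of the 41 members shared a window of 100 bases with another Rab gene in GENCODE M21 transcripts, and 6 shared a window of 50 bases. These were Rab27b with Rab14, Rab11b with Rab4b and Rab8a with Rab27a, none of which is a pair of related Rabs compared here.

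Sharing with other gene models was more extensive. The library chemistry named in the labels does not mark strand, so reads from overlapping genes on opposite strands cannot be told apart. Rab24 shared 62.4% of its GENCODE exon bases with Prelid1 on the opposite strand, which was at 16.7 ± 2.97 CPM, and its level of 1.75 ± 0.575 CPM is uncertain. Rab6a shared 19.0% of its exon bases with Mrpl48 (3.56 ± 0.676 CPM), and Rab10 shared 4.07% with the antisense RNA Rab10os (17.7 ± 0.945 CPM). On the same strand, Rab43 and Rab4b shared 75.4% and 65.0% of exon bases with the gene models Gm45140 and Gm21983, which were not analysed here. Rab2b shared 59.3% with the model Gm43766 on the opposite strand. Processed copies also matched: 305 windows of 50 bases of Rab7 were found in Rab7-ps1, and 555 of Rab11b in Rab11b-ps2. How the authors assigned reads that fit more than a single place is not given in the sources used here, so the levels of these genes are uncertain.

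**Figure D3:**
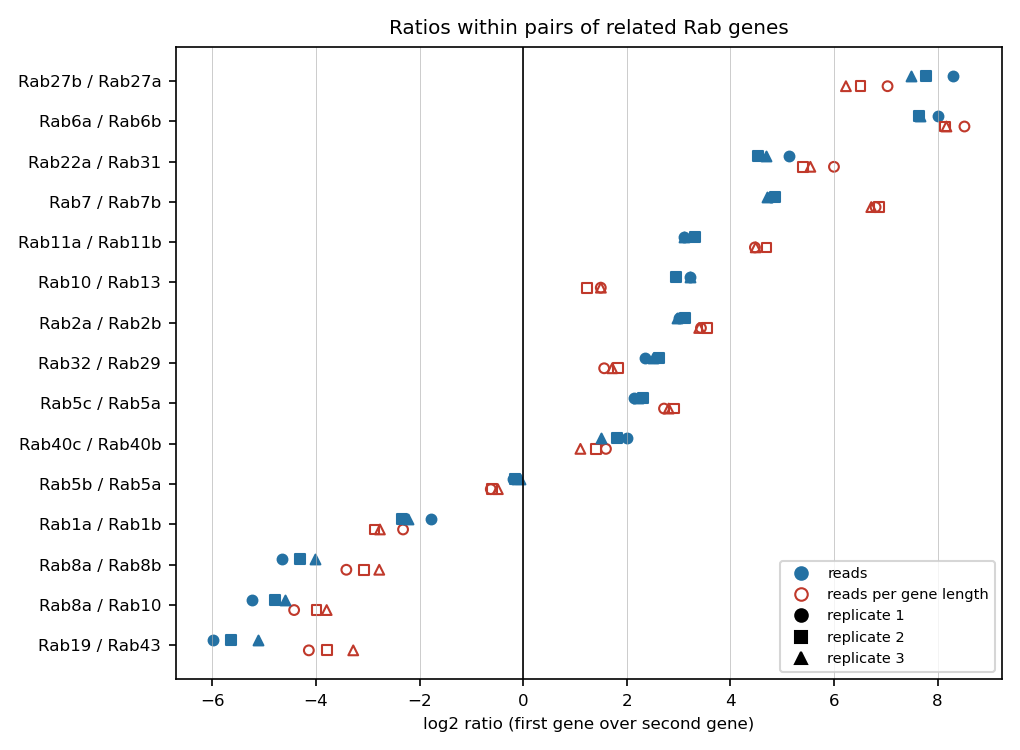
Log2 ratio of the first over the second gene of 15 Rab pairs (x axis) in each library, by reads (filled) and by reads per gene length (open), with symbols for the replicates. Rab27b over Rab27a and Rab6a over Rab6b are the farthest to the right by reads, Rab6a over Rab6b and Rab7 over Rab7b per length, and Rab5b and Rab5a lie closest to 0.

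Of 24 pairs of related Rabs, 15 could be computed, since both genes were in the tables. In 10 pairs the first gene was the higher in all 3 libraries and in 5 the second. All 15 kept a single sign over the libraries by reads and on the length scale. Ratios are given with their SD and no test, because with 3 libraries the smallest two-sided p of an exact sign-flip test is 0.25. Rab7 exceeded Rab7b by 4.78 ± 0.07 on the log2 scale, or 6.796 per length with the coding length deposited for Rab7. Rab10 exceeded Rab13 by 3.12 ± 0.15, or 1.41 per length. Rab19 lay below Rab43 by a log2 ratio of -5.58 ± 0.43, or -3.74 per length.

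The Rab genes varied less between the libraries than the median gene. Over the 38 members with a mean of 1 CPM or more, the median coefficient of variation was 7.09%, against 14.4% over all 8289 genes past that minimum, with no adjustment for level. Against the trend of spread with level the gap was smaller: the median ratio of a gene's dispersion to the trend was 0.567 over the members and 0.760 over all genes, and it lay above 1 in 26.3% and 40.5%. In edgeR's quasi-likelihood fit, 0 of 38 members had excess spread between the libraries at a Benjamini-Hochberg adjusted p under 0.05 (background of all genes tested 0.229%, 19 genes). At an unadjusted p under 0.05 the count was also 0 of 38 (background 4.29%), and DESeq2 marked 0 members as dispersion outliers (background 0.603%). The smallest p was that of Rab6a (unadjusted 0.213, adjusted 0.982 by edgeR). In simulated data the test found 0 of 50 genes changed 2-fold in a single library. It found 26 of 50 at 4-fold and 49 of 50 at 8-fold. A change of 2-fold was thus not detectable. Every simulated gene had the dispersion of the trend, without variation between genes, so these counts need not hold for these libraries. The 19 called genes included the red cell genes Hba-a1 and Alas2, and the red cell list was highest in replicate 1.

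**Figure D4:**
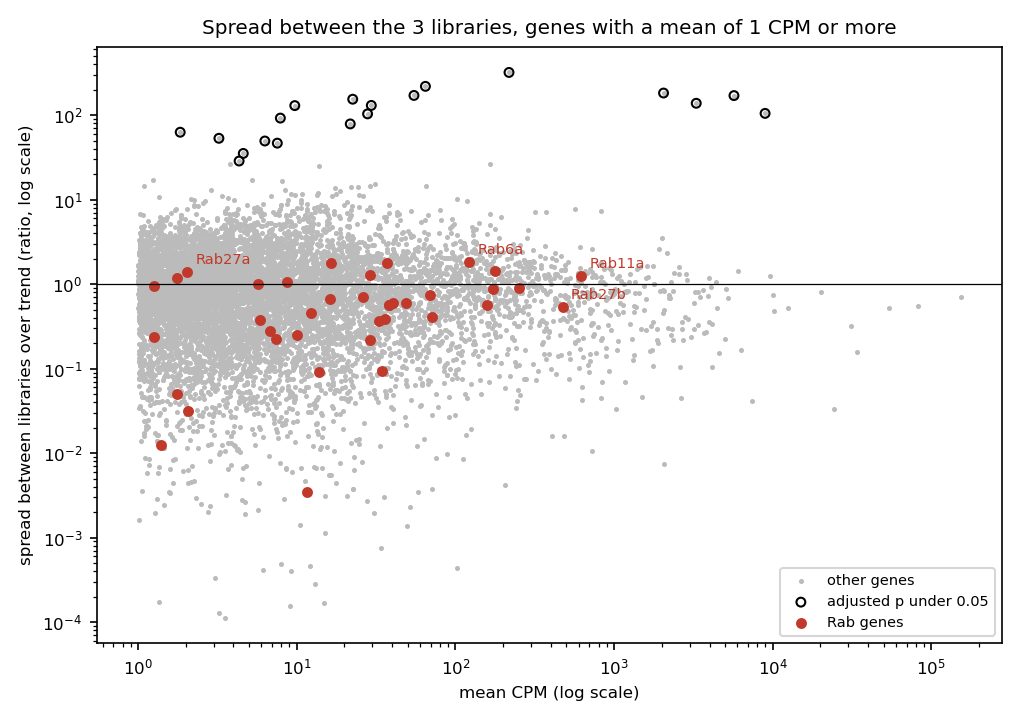
Spread between the 3 libraries as the ratio of each gene's quasi-likelihood dispersion to the trend (y axis, log scale) against mean CPM (x axis, log scale) for 8289 genes, with the 38 Rab genes in red and the 19 called genes circled. The Rab points lie at or below a ratio of 1.84, under all circled genes.

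The widest relative spreads were among the scarce members. Rab19 had a coefficient of variation of 45.9%, Rab24 of 32.8%, Rab40b of 32.7% and Rab27a of 29.4%, all with their highest value in replicate 3. The steadiest was Rab5a at 1.02%, and Rab27b was at 1.798%. In 11 of 41 members the SD was below the counting error expected from the reads alone, among them Rab5a, Rab7, Rab18 and Rab32. In 7 it was over 3 times that error, namely Rab11a, Rab10, Rab5c, Rab22a, Rab1b, Rab43 and Rab8a. Relative to the level, counting error is smaller for genes with more reads, and Rab11a had a coefficient of variation of only 3.76%. The same counts were not made over all genes, so they do not set the members apart from other genes. Of the 38 members, 21 were highest in replicate 3 (55.3%), compared with 69.1% of all genes at 1 CPM or more. The median log2 deviation from the mean of the libraries in replicate 3 was 0.07 over the members and 0.16 over all genes. TMM scaling, which removes a shift common to most genes, used factors of 0.954, 0.958 and 1.09. The B cell, T and NK cell and neutrophil lists were also highest in replicate 3, as was the platelet and megakaryocyte list. The monocyte and macrophage list, the endothelium list and the basophil, mast cell and eosinophil list were highest in replicate 2. The red cell list was highest in replicate 1. The part of other cells in the values of Rab19, Rab24, Rab40b and Rab27a was not tested.

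The genes that serve the Rab cycle were represented by 117 of 143 listed symbols, and 100 of these (85.5%) were detected, beside 77.7% of all genes. Their median of 4.47 CPM lay near the 3.86 CPM of all genes, and 10 stood at or above 100 CPM (8.55%, beside 7.95% of all genes). Among carriers, Gdi2, which extracts Rabs from membranes, was at 518 ± 44.8 CPM, and Rabac1, which helps to release Rabs from their carrier, at 281 ± 13.2 CPM. The enzymes that attach the lipid anchor were scarce: Rabggtb was at 3.43 ± 0.307 CPM, and Rabggta, the gene mutated in the gunmetal mouse with its platelet defect, at 1.31 ± 0.448 CPM. The escort proteins Chm and Chml, which present Rabs to that enzyme, were at 8.84 ± 1.13 and 1.63 ± 0.181 CPM.

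**Figure D5:**
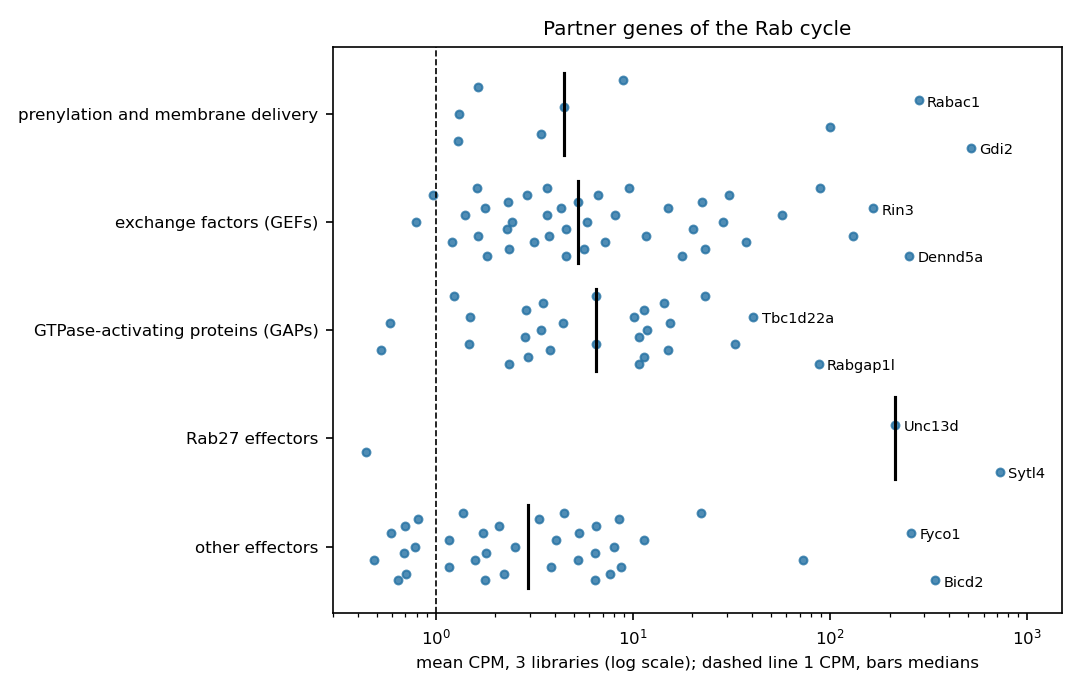
Mean CPM over 3 libraries (x axis, log scale) of each partner gene in the tables, in 5 lists, with a bar at each list's median and a dashed line at 1 CPM. Sytl4 and Gdi2 are the genes farthest to the right, and the median of each of the 4 larger lists lies between 2.92 and 6.45 CPM.

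Effectors of Rab27 in the tables included abundant ones. Of 9 listed genes 3 were in the tables, beside 41.6% of all protein-coding genes in RefSeq. Sytl4, a synaptotagmin-like protein that binds Rab27 on granules, was at 759, 674 and 739 CPM, above Rab27b itself by reads in every library and at 194 on the length scale. Unc13d, which encodes Munc13-4 and is needed for dense granule release, was at 198, 212 and 230 CPM. Sytl1 was at 0.443 ± 0.255 CPM. Madd, the exchange factor of Rab27 and Rab3, was at 88.3 ± 6.67 CPM. Hps1 and Hps4, which form the exchange factor of Rab32 and Rab38, were at 4.31 ± 0.819 and 2.44 ± 0.285 CPM, and Ankrd27, an effector of Rab32 and Rab38 and exchange factor of Rab21, at 3.65 ± 0.534 CPM.

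Other exchange factors were led by the DENN domain gene Dennd5a at 252 ± 13.4 CPM, Rin3, which acts on the Rab5 subfamily, at 165 ± 30.4 CPM, and Trappc9, a TRAPP complex subunit, at 130 ± 10.3 CPM. In that list 41 of 45 genes were in the tables and 39 were detected. The GAP list had 28 of 36 genes in the tables, 26 detected (92.9%). Its highest were Rabgap1l at 87.3 ± 2.89 CPM, Tbc1d22a at 40.7 ± 3.62 CPM and Tbc1d31 at 32.8 ± 4.63 CPM. Further effectors had 36 of 44 genes in the tables and 26 detected (72.2%, below the share of all genes). They were led by Bicd2, which links Rab6 vesicles to dynein, at 342 ± 59.7 CPM, Fyco1, which links Rab7 to kinesin, at 258 ± 9.01 CPM, and the exocyst gene Exoc6 at 72.8 ± 1.91 CPM. By contrast, none of the 4 Rab11 family interacting genes in the tables was detected in every library: Rab11fip1 was at 1.16 ± 0.313 CPM and Rab11fip5 at 0.487 ± 0.159 CPM. Of 104 partner genes tested, 0 had excess spread by edgeR's quasi-likelihood test at an adjusted p under 0.05 (background 0.229%). At an unadjusted p under 0.05 there were 3, or 2.88% (background 4.29%), and DESeq2 marked 0 (background 0.603%).

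The promoters of the members held more CG dinucleotides than promoters in general. RefSeq promoter sequences (GRCm38.p6, 250 bases before to 50 after the start) were given for 34 of the 41 genes, as 40 promoters. Those of Rab27b, Rab2a, Rab18, Rab37, Rab36, Rab30 and Rab7b were not among them, so these genes were not searched for sites. The median of the 40 promoters was 24.5 CG dinucleotides, against 21 for genes of the tables and 7 for all RefSeq promoters. Sites for the GATA factors of megakaryocytes, searched as AGATAA or TGATAA on both strands, occurred in 4 of 40 (10%), beside 10.7% for genes of the tables and 18.6% of all promoters. The ETS family site CCGGAAG occurred in 4 of 40 (10%), beside 18.5% and 8.86%, and TGAGTCA, the core of the NF-E2 site, in 0 of 40, beside 3.63% and 5.20%. Such matches describe letters and not binding. The promoter of Rab11a, the highest member, held 4 matches to CCGGAAG, and 10 of 32851 promoters held as many or more. That count was made for this gene and site alone among those searched. It therefore does not measure how unusual the promoter is. The matches are shown with the site in capitals on the gene's strand, to let them be located.
Rab11a (chr9:64737973-64737999): ccgcccccaaCCGGAAGccagatacta
Rab11a (chr9:64737786-64737812): tgccatctctCCGGAAGtactttctgc
Rab11a (chr9:64737753-64737779): ctggggccttCCGGAAGtgacgcatac
The last of these overlaps the remaining match, which lies on the opposite strand and reads CTTCCGG here. The GATA matches in promoters of members were these, where TTATCA is the opposite strand of TGATAA.
Rab43 (chr6:87809865-87809890): ttacctgtgaAGATAAcctgtcacct
Rab7 (chr6:88045430-88045455): caccactgcaTTATCAgttcttggcc
Rab14 (chr2:35201331-35201356): ggcggcccagTGATAAgcagttacgc
Rab32 (chr10:10558392-10558417): taaactagatTTATCAgcgtactcag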

How the data were processed

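Total RNA of 3 platelet samples was made into libraries and sequenced with Illumina TruSeq RNA version 2 chemistry, per the labels' protocols. The authors deposited, per the file headers, raw counts per Entrez gene and a gene length for each library. The submitters' processing notes name CASAVA 1.8.2, Subread, featureCounts, edgeR 3.11.5 and mm10. Not given in the sources used here: the annotation, the strand and multi-mapping settings, and the rule that left 9822 genes. No gene had a highest value under 0.238 CPM, so scarce genes had been removed. Depth was 26974129, 25189231 and 26111636 counts, at which 3 counts are 0.111, 0.119 and 0.115 CPM.

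Symbols came from RefSeq GRCm38.p6 (9636 genes) and GENCODE M21 (2), and 184 genes had none. CPM used the plain total of counts. Detection was 1 CPM in all 3 libraries. Pair ratios added a prior count of 2. Spread was tested with edgeR 4.0.16 (limma 3.58.1, R 4.3.3): an intercept with TMM scaling for the 8289 genes whose mean reached 1 CPM, the quasi-likelihood dispersion (2 residual degrees of freedom) against its trend by the upper tail of F, and Benjamini-Hochberg adjustment over all genes. On simulated data with 8289 genes, each at the dispersion of the trend, it gave 0 false calls among 8089 unchanged genes. DESeq2 1.42.0, Python 3.11.15, SciPy 1.17.1, pandas 2.3.3, Biopython 1.88 and matplotlib 3.10.9 served the other steps. The members, role groups, partner lists and pairs were chosen with earlier results of these data known. Genes named were the 12 highest Rab genes, Rab27a, Rab27b, Rab32 and Rab38, both genes of each computed pair, the 3 lowest members, those beside 1 CPM and the 3 highest of each partner list, of which 1 is not reported here; others were named to account for the members or as direct partners of Rab27, Rab32 and Rab11, after their values were seen. Alternatives covered scaling, detection minimum, filters, prior and each replicate left out.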

Additional observations from a re-analysis of the deposited data

How the results depend on the processing

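The number of Rab genes detected (30 to 38 of 41), the 0 calls of excess spread among them and the single sign of all 15 pairs kept their side under every alternative run, which for spread covered other scalings, filters, a robust prior, DESeq2 and each replicate left out; leaving a replicate out gave 37 to 38 detected genes. The excess in the share detected did not hold at 0.5 CPM, with 92.7% of Rab genes and 93.0% of all genes; it was 73.2% and 40.7% at 5 CPM. The share of counts was 0.465% with the 10 highest genes left out of the total, 0.269% without the red cell list and 0.268% with every Rab-numbered symbol, and the median level was 29.0 CPM without the 10 highest genes; these settings shrink the total or add genes by construction. Without a replicate the share was 0.262% to 0.265% and the median 15.7 to 17.8 CPM. Partner genes detected numbered 50 at 5 CPM. Over all genes, 30 had excess spread with DESeq2 size factors, 11 with plain totals, 11 at 5 CPM or more, 0 with a robust prior (396 at an unadjusted p under 0.05), 50 as DESeq2 outliers, and 1 to 30 with a replicate left out, 1 being without replicate 1 and 30 without replicate 3, against 19; the cause was not tested. Of single values, levels moved by over 1 SD in 46 recomputed values and not in 241. Pair ratios moved in 15 and not in 60, none with a change of sign. Leaving out a single replicate of 3 cannot move a mean by 1 SD, so those values could not count as moved. Nor could a replicate left out, or another prior count, change the sign of a pair with a single sign in all libraries. No paired analysis was possible because there is a single group. Depth limits members under 1 CPM, with 10 to 26 counts per library for Rab19, Rab6b and Rab40b.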
